A study of Mus musculus with 2 samples.

Results

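The Notch receptors and their best known target genes were examined as a set of 10 genes, namely the receptors Notch1, Notch2, Notch3 and Notch4, the targets Hes1, Hey1, Hey2, Heyl and Nrarp, and the receptor-modifying enzyme gene Lfng. The 10 genes were chosen by name and not by their values, and all 10 were present among the 19550 genes of the deposited count table. The table held 7808 cells dissociated with collagenase from the stomach, the esophagus and their squamocolumnar junction (GE-SCJ) of wild type C57BL/6 mice at embryonic days 15 (E15) and 19 (E19), on day 2 after birth (pup) and at 8 weeks (adult). The series' design text counts 6 mice at E15, 2 at E19, 2 pups and 3 adults, while the methods describe 3 mice combined per sample. Cells of the same region and stage were pooled under 1 multiplexing tag before all tags were run together. Each of the 11 combinations of region and stage is therefore 1 sample with no replicate, and no test between groups was possible. No adult stomach cells were present. A level is the summed count of unique molecular identifiers (UMIs) of a gene, divided by all UMIs of the same cells and scaled to 1000000 (CPM), given with an exact 95% Poisson interval in parentheses. A difference between groups is a log2 ratio of CPM with 1 UMI added to each sum, given with a 95% interval. That interval is the conditional binomial one of the sums with the added UMI. It is thus not exact for the observed sums, above all at few UMIs. These intervals cover counting error only and not the differences between mice. Where genes are counted as higher or lower, the difference is at least 2-fold by these sums. For a gene with few UMIs the added UMI raises the side with fewer total UMIs. Such a gene can be counted although its CPM differ by less than 2-fold.

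Notch receptors are cleaved after they bind a Delta or Jagged ligand on a neighboring cell, and the released intracellular domain enters the nucleus and joins the DNA-binding protein RBPJ to switch on target genes. Hes and Hey genes encode repressor proteins that hold back differentiation factors, Nrarp encodes an inhibitor of the nuclear complex, and Lfng encodes a sugar transferase that changes which ligands a receptor answers to. The pathway is best known for choices between neighboring cells, in the nervous system, in blood vessels and their supporting mural cells, and in stratified and glandular epithelia.

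RefSeq promoter windows were available for 7 of the 10 genes, and those of Hey2 and Lfng are shown because they alone held the core that RBPJ recognizes. The search covered the 250 bases before the annotated start, on GRCm38.p6, for TGGGAA and its reverse complement TTCCCA, which are in capitals. In comparison 21.5% of all 27025 promoters of this length held at least 1 match on either strand. The window of Hey2 lies on the minus strand at chr10:30842784-30843033, with its match 207 bases before the start. The window of Lfng lies on the plus strand at chr5:140607091-140607340, with matches 135 and 108 bases before the start in opposite orientation, and 2.85% of promoters held 2 or more.
Hey2: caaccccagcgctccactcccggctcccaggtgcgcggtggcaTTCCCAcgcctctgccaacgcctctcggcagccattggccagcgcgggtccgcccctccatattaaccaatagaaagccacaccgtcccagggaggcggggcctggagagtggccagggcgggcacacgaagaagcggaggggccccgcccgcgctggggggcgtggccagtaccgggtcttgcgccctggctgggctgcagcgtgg
Lfng: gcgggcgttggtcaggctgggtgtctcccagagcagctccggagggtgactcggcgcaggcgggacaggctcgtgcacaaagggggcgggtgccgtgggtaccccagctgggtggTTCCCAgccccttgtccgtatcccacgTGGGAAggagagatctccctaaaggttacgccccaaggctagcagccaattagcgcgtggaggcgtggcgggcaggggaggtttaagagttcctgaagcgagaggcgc
No match lay in the windows of the 4 receptors and Nrarp, which says only that these letters were not there. The start of Notch3 in the table was not found in a transcript of the reference, so its window may not be its promoter. A match is a description of the sequence and not a binding site.

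The cells carried 9 labels set by the authors, which are here called fibroblast (3442 cells that the authors name stromal), columnar (1540), smooth muscle (1027), squamous (690), neural (419), immune (354), endothelial (157), the second stromal label (139 cells with mesothelial genes) and the second squamous label (40). The labels came from clustering the same counts, so that a gene's level in one label against the rest is a description. Cells per region and stage ranged from 143 to 1403, and summed UMIs from 2302227 to 20070615. The marker list of each label stood at its highest summed level in that label, for example 2700.3 CPM of Pecam1, Cdh5, Kdr and Tie1 in endothelial cells against at most 35.5 CPM in any other label. The second squamous label was the exception, with 1457 CPM of the squamous markers against 4592 CPM in the first and with 881 CPM of Msln, a mesothelial marker, while Upk3b stood at 5.40 CPM and Wt1 and Lrrn4 at 0. It held the suprabasal keratins Krt13 at 8826 CPM and Krt4 at 1697 CPM. The columnar markers, at 10716 CPM in columnar cells, were present at 572 CPM to 1026 CPM in every other label. Their part in the levels given for those labels was not tested. Some adult-tagged cells had mostly prenatal cells among their 15 nearest neighbors, 24 of 143 at the GE-SCJ and 17 of 335 in the esophagus, but 2 of 232 adult esophageal squamous cells and 0 of 30 adult esophageal smooth muscle cells did so. The 10 genes rested on between 239 UMIs (Notch4) and 40354 UMIs (Hes1) over all cells. This sets the precision of each and does not rank them, since levels of different genes are not compared here.

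The 4 receptors were distributed differently over the labels. Notch1 (chromosome 2, 26457903 to 26516663, minus strand, GRCm38) was highest in neural cells at 233 CPM (217–249), and its level in endothelial cells, 209 CPM (188–231), overlapped that interval. Squamous cells followed at 86.0 CPM (80.4–91.9) and immune cells at 60.6 CPM (53.0–69.0), whereas fibroblasts, columnar cells and smooth muscle stood at 37.5 CPM, 28.0 CPM and 13.1 CPM. The highest levels of Notch1 were thus in nerve, vessel lining and stratified epithelium, and it was detected in all 9 labels. Notch2 was spread more evenly, and its 3 highest levels, 67.0 CPM (53.9–82.4) in the second stromal label, 49.4 CPM (42.5–57.1) in neural cells and 42.2 CPM (35.9–49.3) in immune cells, formed a chain in which each interval overlapped the next. Fibroblasts, smooth muscle and squamous cells held Notch2 at 42.2 CPM, 37.4 CPM and 33.3 CPM, and endothelial cells, where Notch1 was high, at 6.74 CPM (3.48–11.8).

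Notch3, the receptor best known from the smooth muscle and pericytes of small arteries, was highest under the fibroblast label at 56.2 CPM (53.6–58.8), then in squamous cells at 39.0 CPM (35.3–43.1) and smooth muscle at 27.6 CPM (24.6–31.0), and these 3 intervals did not overlap. At least 1 Notch3 UMI was found in 30.2% of 3442 cells (28.7–31.8%) under the fibroblast label, against 4.24% of 354 cells (2.39–6.89%) in immune cells, taken as a background class at a similar depth (medians of 8940.0 and 8266 UMIs per cell). After thinning to 2000 UMIs these shares came to 8.99% and 0.631%. Cells with fewer than 2000 UMIs were left out of this, 40 under the fibroblast label and 37 of the immune label. Notch4, the receptor of the vessel lining, had its highest level in 1 label by a wide margin. It reached 51.1 CPM (41.1–62.7) in endothelial cells and no more than 2.92 CPM (1.46–5.23) in any other. The 157 endothelial cells, 2.01% of all cells with 1.65% of the UMIs of all genes, held 38.1% of its UMIs. A Notch4 UMI was present in 35.7% of 157 cells (28.2–43.7%) of the endothelial label at a median of 9365 UMIs per cell, and in 2.34% of 1540 cells (1.64–3.22%) of the columnar label at 25118, or 13.3% and 0.131% after thinning.

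The target genes separated into a widely detected one, Hes1, and others found mainly in 1 to 3 labels. Hes1 (chromosome 16, 30064384 to 30067796, plus strand) was highest in columnar epithelium at 594 CPM (587–602), followed by neural cells at 414 CPM (394–435) and squamous cells at 378 CPM (366–389.9). It was found in every label, down to 95.3 CPM (89.6–101) in smooth muscle and 46.9 CPM (36.1–60.0) in the second stromal label. Columnar cells, 19.7% of all cells but with 40.1% of the UMIs of all genes, held 63.7% of its UMIs. Hey2 and Heyl were both highest in the neural label. Hey2 stood at 182 CPM (169–197) there and at 8.29 CPM (7.33–9.34) in fibroblasts, the next label, and Heyl at 69.4 CPM (61.2–78.4) and 24.0 CPM (22.4–25.8). Both were at 0 UMIs in the second stromal and the second squamous labels, with upper limits of 2.75 and 6.65 CPM. A Hey2 UMI was present in 53.7% of 419 cells (48.8–58.6%) of the neural label and in 0.565% of 354 cells (0.0685–2.03%) of the immune label, with medians of 7900.0 and 8266 UMIs per cell, and after thinning in 28.3% and 0%.

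Hey1 had its highest levels in a pair of labels, with 23.0 CPM (16.5–31.2) in endothelial cells and 16.6 CPM (12.7–21.2) in neural cells, intervals that overlap, and 9.77 CPM (8.72–10.9) in fibroblasts. Nrarp was highest in the vessel lining, at 104 CPM (89.4–120.0) in endothelial cells, and next in the stratified epithelium, at 53.8 CPM (49.4–58.5) in squamous cells. The remaining labels stood at or below 15.8 CPM (12–20.3) of Nrarp, the level of neural cells. Lfng, which acts on the receptors and not downstream of them, was highest in the second stromal label at 43.9 CPM (33.5–56.7), with endothelial cells at 34.3 CPM (26.2–44.0) and immune cells at 29.8 CPM (24.5–35.8) in overlapping intervals. No label was the highest for all members of a family, as the plot of the 10 genes by label shows.

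**Figure D1:**
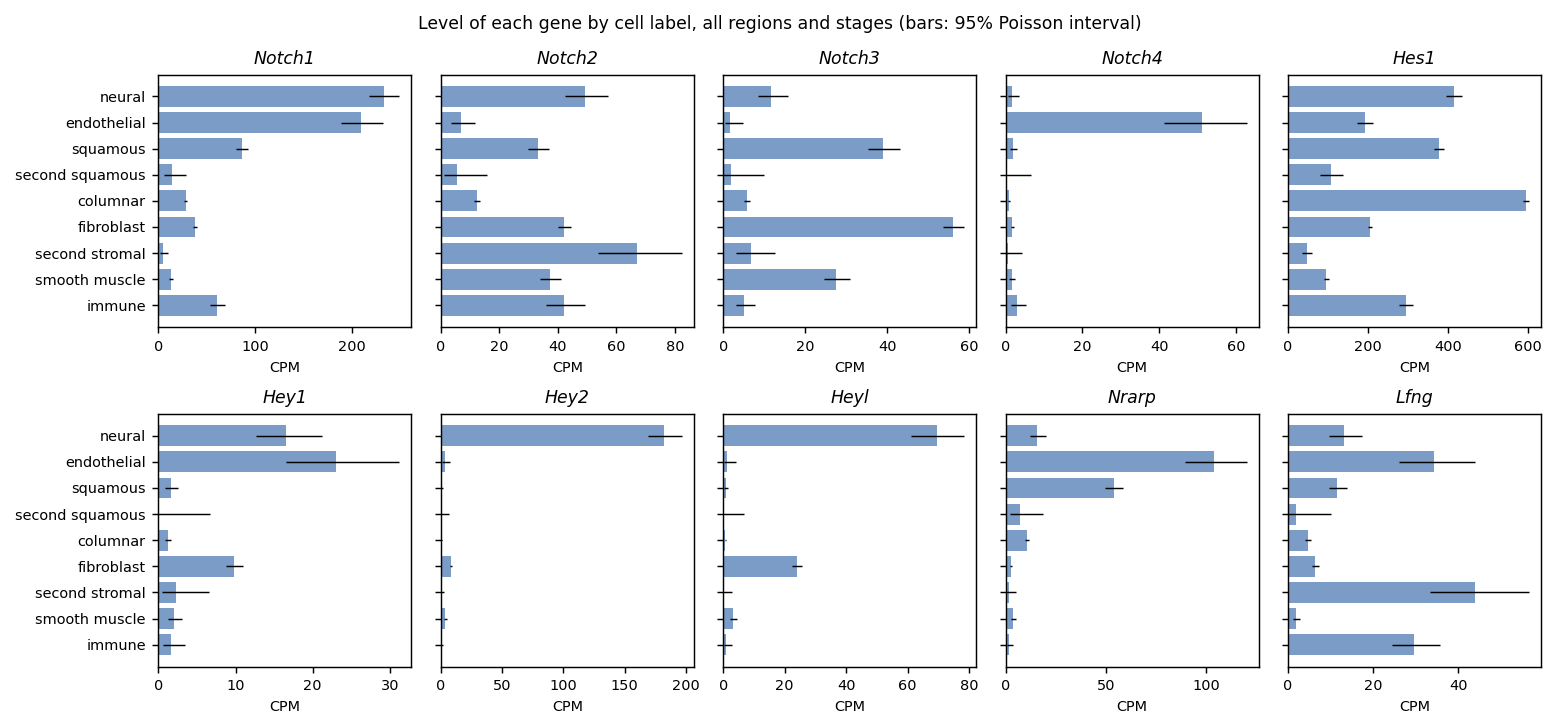
Level of each of the 10 genes (horizontal axis, CPM, a linear scale of its own in each panel) in the 9 cell labels (vertical axis), with all regions and stages summed; bars start at 0 and whiskers are exact 95% Poisson intervals. Notch4 is high in the endothelial label (51.1 CPM), Hey2 in the neural label (182 CPM) and Hes1 in the columnar label (594 CPM).

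In endothelial cells against all other labels together, 5 of the 10 genes were higher (Notch1, Notch4, Hey1, Nrarp and Lfng), beside 9.97% of the 14758 genes with at least 100 UMIs over both sides, and 4 were lower (Notch2, Notch3, Hey2 and Heyl), beside 19.2%. All 10 reached 100 UMIs over both sides. Inside each of the 2 samples with at least 20 endothelial cells, at E19 at the GE-SCJ and in the stomach, the 5 higher genes were higher as well. Of the 4 lower genes Notch3 was lower in both, Notch2 and Hey2 in 1 and Heyl, with no endothelial UMI, in 0. Hes1, within 2-fold over all cells, was lower in both, at log2 ratios of -2.24 at the GE-SCJ and -1.33 in the stomach. The other labels include columnar cells, which held 63.7% of all Hes1 UMIs, and their part in these ratios was not tested. Over all regions and stages Hes1 in endothelial cells, at 192 CPM (172–214), overlapped its level in fibroblasts, at 205 CPM (200–210). Leaving out cells with markers of another class removed 137 of the 157 endothelial cells. It also changed the other labels, since it removed 3180 of 3442 fibroblasts and 880 of 1027 smooth muscle cells but 470 of 1540 columnar cells. The part of this in the ratios that follow was not tested. The endothelial cells that were left held no UMI of Notch2, Notch3, Hey2 or Heyl, so that these 4 could not be called. Hes1 passed 2-fold against the changed mix of other labels, at a log2 ratio of -1.06. With all cells kept, the log2 ratio was 5.20 (4.81 to 5.59) for Notch4, 3.20 (2.97 to 3.43) for Nrarp, 2.38 (1.89 to 2.84) for Hey1 and 2.29 (2.13 to 2.44) for Notch1. Heyl, with 2 endothelial UMIs, had a log2 ratio of -2.65 (-4.93 to -1.09) and Notch3, with 3, one of -3.57 (-5.45 to -2.22). The vessel lining thus carried receptors 1 and 4 and was nearly without receptors 2 and 3, and the median log2 ratio of the 10 genes was 0.65, against -0.04 over all genes counted. The ligand gene Dll4, known from sprouting vessels, stood at 47.7 CPM (38.1–59.0) in endothelial cells and at no more than 4.12 CPM elsewhere, and the second sugar transferase gene Mfng at 82.5 CPM (69.7–97.0). A split of the label by arterial genes (at least 2 UMIs over Gja4, Gja5, Sox17 and Efnb2, 90 cells against 67, of which 19 and 28 were 1 UMI from the limit) left Notch4 at 50.9 CPM (39.6–64.6) and 51.6 CPM (32.7–77.4), and Nrarp at 106 CPM (89.6–125) and 96.4 CPM (69.8–129.8). For both genes the intervals of the 2 sides overlapped.

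The 21 endothelial cells of the pup differed from the 115 prenatal ones in the targets. Nrarp stood at 118 CPM (94.7–144) at E15, 106 (85.1–131) at E19 and 34.4 (9.37–88.0) in pups, with 4 UMIs, a log2 ratio of pup over prenatal of -1.39 (-3.03 to -0.14). Hey1 had the opposite direction, with 11.6 CPM (5.32–22.1) at E15, 16.9 (9.23–28.3) at E19 and 120.3 (65.8–202) in pups, a log2 ratio of 3.11 (2.07 to 4.1), and Notch4 had one of 1.63 (0.75 to 2.43). In the pup 5 genes were higher (Notch2, Notch4, Hes1, Hey1 and Lfng), beside 9.83% of 2941 genes, and 1 was lower, beside 12.9%, with 3 of the 10 at 100 UMIs or more and Notch3, Hey2 and Heyl at no more than 3 UMIs on both sides. As a mean over the CPM of single cells, 2 genes were higher in place of 5, and without the 1% of cells with most UMIs 3 were. The pup cells also differed in the summed level of the lymphatic genes Prox1, Lyve1, Flt4 and Ccl21a, at 3747 CPM in the stomach, 6955 CPM at the GE-SCJ and 12726 CPM in the esophagus, against 49.0 CPM to 881 CPM in the 6 prenatal groups. The part of this in the target levels was not tested.

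Neural cells were compared with all other labels after their levels had been seen. They had 4 of the 10 genes higher (Notch1, Hey1, Hey2 and Heyl), beside 13.8% of 14758 genes, and 1 lower, Notch3, beside 19%. The log2 ratios were 5.74 (5.55 to 5.92) for Hey2, 3.08 (2.87 to 3.28) for Heyl, 2.58 (2.47 to 2.69) for Notch1 and 1.93 (1.53 to 2.31) for Hey1. Hey2 was the gene with the largest ratio of the 10. Without the pup and adult cells its log2 ratio was 5.35, while that of Hes1 was -0.23 in place of 0.15. Inside each of the 7 samples with at least 20 neural cells Notch1, Hey2 and Heyl were higher than in the other labels, Hey1 was so in 4, and Notch3 was lower in 4 and higher in 1, the pup stomach, on 1 UMI. The 7 neural groups with at least 20 cells held Hey2 at a lowest level of 78.9 CPM (55.3–109), at E15 at the GE-SCJ, a median of 242 CPM and a highest of 431 CPM (312–581), in the pup stomach. All 7 therefore stood above the highest Hey2 level of any other group of at least 20 cells, 70.0 CPM (36.2–122) in adult esophageal smooth muscle, by their point estimates.

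Within the neural label Hes1 and Hey2 were highest in the pup among the 3 stages with at least 20 cells. Hes1 stood at 259.9 CPM (239–282) at E15 in 202 cells, 457 (420.2–497) at E19 in 145 cells and 1506 (1364–1659) in pups in 59 cells. Hey2 stood at 115 CPM (102–130.4), 259.6 CPM (232–290.0) and 387 CPM (317–468), and Notch1 at 211 CPM (192–230.5), 277 CPM (248–308) and 233 CPM (179.8–298). The log2 ratio of pup over E15, also chosen after the levels were seen, was 2.54 (2.35 to 2.72) for Hes1 and 1.75 (1.41 to 2.08) for Hey2, and these 2 genes were the higher ones, beside 10.6% of 4541 genes, with 1 lower, Lfng, beside 16.8%. The pup level of Hes1 had overlapping intervals in the 2 regions with at least 20 neural cells, 1409 CPM (1189–1658) in the esophagus and 1464 CPM (1236–1722) in the stomach. In the same cells Hes5, a further Hes gene of the nervous system, stood at 40.8 CPM (32.9–50.2) at E15, 34.6 (25–46.8) at E19 and 0 (0 UMIs, where 3 UMIs would be 10.9 CPM) in pups. A different mix of cells within the label and a different level per cell cannot be told apart in these sums.

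In the columnar epithelium of the stomach and the GE-SCJ, Notch1, Notch2 and Notch3 were lower in the pup than at E15, while Hes1 differed between the regions. Notch1 stood at 43.8 CPM (37.4–50.9) at E15, 34.8 (31.1–38.7) at E19 and 18.3 (15.9–21.0) in pups in the stomach, in 140, 366 and 351 cells. Notch3 stood at 13.2 CPM (9.83–17.4), 5.76 CPM (4.34–7.50) and 0.963 CPM (0.481–1.72), the log2 ratio of pup over E15 being -3.68 (-4.72 to -2.76). The stomach of the pup had 5 of the 10 genes lower than at E15 (Notch1, Notch2, Notch3, Hey1 and Heyl), beside 19% of 9333 genes, and none higher, beside 8.97%, with 4 of the 10 at 100 UMIs or more. At the GE-SCJ 7 were lower (the same 3 receptors, Hey1, Hey2, Nrarp and Lfng), beside 19.3% of 8002 genes, and none higher, beside 8.41%, with 3 at 100 UMIs or more. Hey2 passed 2-fold there only through the added UMI. Hey1, Hey2 and Heyl rested on at most 13 UMIs in any of these groups. The median log2 ratio of the 10, those under 100 UMIs included, was -0.93 in the stomach and -1.77 at the GE-SCJ. Over all genes with at least 100 UMIs it was -0.36 and -0.35. These medians rest on unlike sets, since genes with few UMIs are moved most by the added UMI.

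Hes1 was highest at E19 in both regions. In the stomach it stood at 463 CPM (442–485), 702 CPM (686–719.5) and 540.1 CPM (527–554) at the 3 stages. At the GE-SCJ it stood at 468 CPM (431–506) in 53 cells, 1025 CPM (1002–1049) in 274 and 244 CPM (234–255) in 291. The intervals of the regions overlapped at E15, the GE-SCJ was above the stomach at E19, and the stomach was above the GE-SCJ in the pup, in intervals that did not overlap at the last 2 stages. In the stomach Nrarp, a further target, was also highest at E19, at 16 CPM (13.6–18.8) against 7.25 CPM (4.82–10.5) at E15 and 7.97 (6.42–9.78) in pups.

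**Figure D2:**
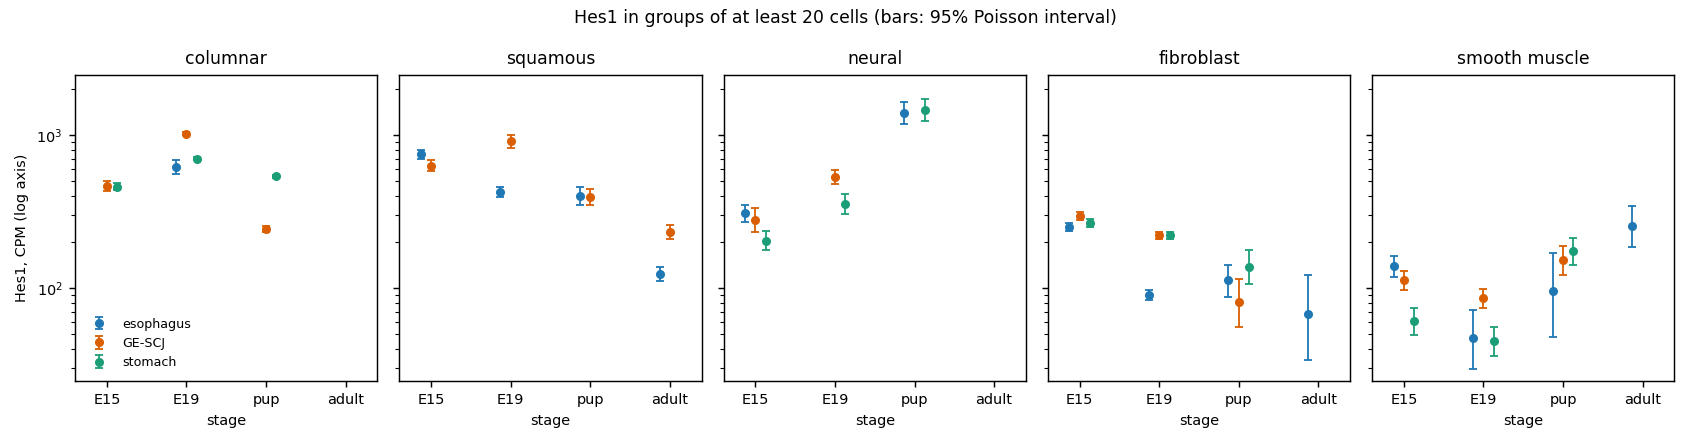
Hes1 level (vertical axis, CPM, log scale) by stage (horizontal axis) in 5 labels, for each region with at least 20 cells; points are sums over cells and whiskers 95% Poisson intervals. The columnar points are highest at E19, the neural points in the pup, and the squamous points of the esophagus lowest in the adult (124 CPM).

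Squamous cells stood above columnar cells in Notch1, Notch2, Notch3 and Nrarp at each stage compared, by less than 2-fold for the 3 receptors at the GE-SCJ at E15, and no member was lower. At the GE-SCJ, 2, 4 and 7 of the 10 genes were higher in squamous cells at E15, E19 and in the pup, beside 3.58%, 6.51% and 7.85% of the genes counted, and 0 were lower, beside 6.09%, 11.7% and 16.3%. Between the esophageal squamous and the stomach columnar cells the counts were 7, 4 and 6 higher, beside 6.36%, 8.2% and 10.3%, and 0 lower, beside 8.09%, 12.1% and 25.6%. Over both sides 2, 4 and 3 of the 10 genes reached 100 UMIs at the GE-SCJ, and 2, 5 and 4 between the organs. Up to 2 had no more than 3 UMIs on both sides. The 7 of the pup's GE-SCJ thus include genes under 100 UMIs, as do the 7 and 6 between the organs at E15 and in the pup. At the GE-SCJ the first squamous label held 904232 UMIs against 1323799 in columnar cells at E15, and 655405 against 8193734 in the pup. The added UMI thus acts unequally over the stages, and the counts are not read as a trend. Nrarp was higher in squamous cells in all 6, from a log2 ratio of 1.02 (0.55 to 1.47) in the flanking organs at E19 to 2.54 (1.83 to 3.27) at E15. For Notch3 the log2 ratio at the GE-SCJ was 0.98 (0.31 to 1.65) at E15, 2.66 (2.00 to 3.30) at E19 and 3.03 (1.84 to 4.16) in the pup. Hes1 was within 2-fold in all 6 comparisons, with log2 ratios from -0.99 (-1.17 to -0.81) in the flanking organs of the pup to 0.70 (0.58 to 0.83) at E15, so that the direction differed between stages. Notch4, counted as higher in the pup's flanking organs at 1.38 (-1.87 to 3.66), had a log2 ratio of -0.11 as a mean over the CPM of single cells. It rested on few UMIs and was counted only through the added UMI. Lfng stood at 39.7 CPM (28.2–54.3) in esophageal squamous cells and 4.14 CPM (2.37–6.73) in stomach columnar cells at E15.

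Hes1 and Nrarp had different orders of stages in the squamous cells of the esophagus. Hes1 stood at 752 CPM (699–808) at E15, 428 (397–461) at E19, 403 (352–458) in pups and 124 CPM (112–137) in the adult, in 64, 120, 56 and 232 cells of the first squamous label. Nrarp stood at 42.7 CPM (30.8–57.8), 33.2 CPM (25–43.2), 31.5 CPM (18.7–49.8) and 66.4 CPM (57.8–75.9). With both squamous labels joined, the log2 ratio of adult over E19 was -1.74 (-1.92 to -1.56) for Hes1, the 1 lower gene, beside 8.25% of 5735 genes, and 1.03 (0.59 to 1.48) for Nrarp, the 1 higher gene, beside 8.53%. With the first squamous label alone the ratio of Nrarp was 0.98, just inside 2-fold. At the GE-SCJ the adult was set against E15, a different baseline, in a comparison chosen after the levels were seen. The log2 ratio was -1.45 (-1.64 to -1.25) for Hes1, 1.09 (0.55 to 1.65) for Nrarp and -3.95 (-7.10 to -1.89) for Lfng, which had 1 adult UMI. Of the 10 genes 1 was higher, beside 11.8%, and 3 were lower, beside 17.8%. In the esophagus the adult and E15 levels of Nrarp, 66.4 CPM and 42.7 CPM, were less than 2-fold apart. For adult over E19 in the esophagus and adult over E15 at the GE-SCJ, 5 and 4 of the 10 reached 100 UMIs over both sides. In each of them 3 of the 10 had no more than 3 UMIs on both sides. In the pup esophagus, compared with E15 on the same footing, 4 of the 10 genes were lower (Notch1, Notch3, Hes1 and Hey1), beside 32.5%, and none was higher, beside 11.1%. The count of lower genes was near that share, with 2 of the 10 at 100 UMIs or more and 3 at no more than 3 UMIs on both sides.

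Inside the squamous epithelium receptors, a ligand and targets differed between cells led by basal and by suprabasal keratins. Esophageal cells of both squamous labels were split by keratins, into cells with more UMIs of the basal Krt5, Krt14 and Krt15 and cells with at least as many of the suprabasal Krt4 and Krt13, and in the adult this gave 120 and 112 cells, of which 11 and 9 had sums within 2-fold of each other after 1 UMI was added to each, while at E15 it gave 52 and 12, at E19 68 and 55 and in the pup 49 and 36. Jag2, a ligand gene, was basal at every stage, in the adult at 122 CPM (101–145) against 4.14 CPM (1.89–7.86). Lfng was basal as well, at 48.9 CPM (34.6–67.1) against 4.87 CPM (0.123–27.1) at E15 and 14.5 CPM (8.11–23.9) against 0 CPM (0 UMIs, where 3 UMIs would be 1.38 CPM) in the adult. Notch3 was suprabasal at E19, at 19 CPM (10.8–30.8) against 82.1 (64.1–104), and in the adult, at 2.90 CPM (0.598–8.47) against 43.2 CPM (34.9–52.9). Nrarp had the same side, at 20.6 CPM (11.8–33.4) against 127 CPM (82.7–185) at E15, 10.7 CPM (4.88–20.2) against 53.2 (38.9–70.9) at E19 and 10.6 CPM (5.31–19) against 92.9 CPM (80.5–107) in the adult. The pup was the exception for Nrarp, with 30.2 CPM (16.5–50.8) in basal and 13.7 CPM (5.52–28.3) in suprabasal cells, intervals that overlap. Of these pup cells 29 carried the second squamous label, which held Nrarp at 7.47 CPM. The part of this label in the exception was not tested. Notch1 leaned to the suprabasal side at E19, 79.4 CPM (61.5–101) against 124 CPM (101–149), and to the basal side in the adult, 87.9 CPM (70.8–108) against 48.3 CPM (39.5–58.4). Hes1 was higher in basal cells at E15, 824 CPM (761–890.0) against 482 CPM (392–587), and in suprabasal cells in the adult, 91.8 CPM (74.3–112) against 139.8 CPM (125–156), so that the lower adult level of Hes1 held on both sides of the split. The higher summed level of Nrarp in the adult than at E15 did not. On both sides adult Nrarp stood below E15 by point estimates, in overlapping intervals. Against E19 adult Nrarp was higher on the suprabasal side only. The part of the mix of both sides in the summed Nrarp level was not tested. The adult GE-SCJ, split in the same way into 41 and 46 cells, had Nrarp at 28.4 CPM (15.1–48.6) and 111 CPM (91.7–132), Notch1 at 135 CPM (104–174) and 39.3 CPM (28.4–52.9) and Jag2 at 85.2 CPM (60.6–116) and 2.74 CPM (0.565–8.01). The split cells differed in depth, with adult medians of 7453 UMIs per basal and 14948 per suprabasal cell.

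**Figure D3:**
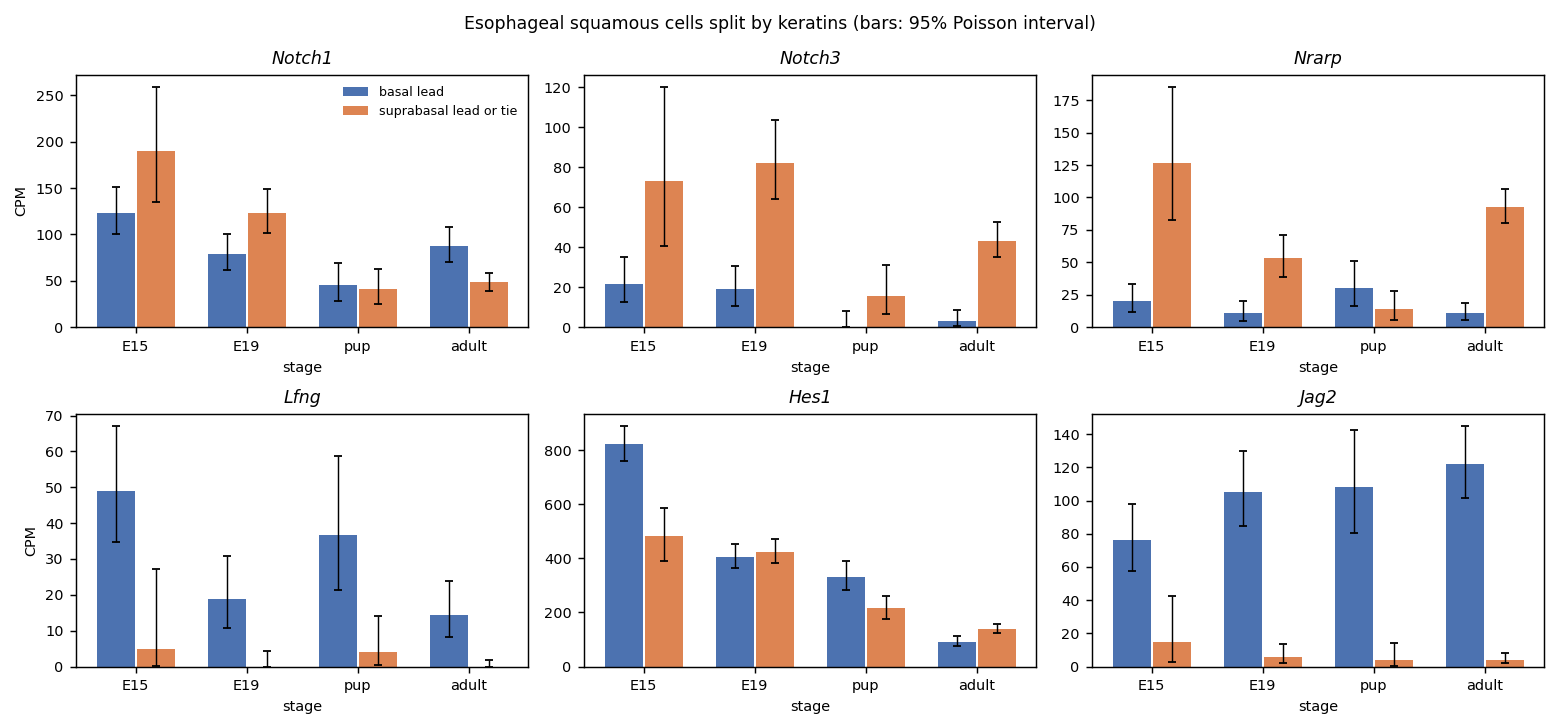
Levels (vertical axis, CPM, from 0) of 5 of the Notch genes and the ligand gene Jag2 in esophageal squamous cells at 4 stages (horizontal axis), for cells led by basal keratins (blue) and by suprabasal keratins or tied (orange); whiskers are 95% Poisson intervals. Jag2 and Lfng are higher on the basal side at all 4 stages. Notch3 is higher on the suprabasal side at E19 and in the adult, where it stands at 2.90 CPM and 43.2 CPM.

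Fibroblasts differed by region before birth. Heyl stood at 10.8 CPM (7.72–14.6) in the esophagus, 50.4 CPM (43.5–58.1) at the GE-SCJ and 37.2 CPM (31.3–43.8) in the stomach at E15, and at 5.16 CPM (3.61–7.14), 33.0 CPM (28.5–38.1) and 22.2 (18.8–26.1) at E19. The esophagus was thus the lowest of the regions at both stages. The intervals of the GE-SCJ and the stomach overlapped at E15, and the GE-SCJ was the higher at E19, with 347 to 739 cells in each group. Hey1 stood at 1.29 CPM (0.590–2.45) in the esophagus and 13 CPM (10.4–16.1) in the stomach at E19, a log2 ratio of 3.20 (2.25 to 4.31). Notch3 stood at 29.4 CPM (25.5–33.7), 72.2 CPM (65.4–79.5) and 68.7 CPM (62.5–75.3) in the esophagus, GE-SCJ and stomach at E19. Of the 10 genes, 3 were higher in the stomach than in the esophagus at E15 (Hey1, Hey2 and Heyl), beside 2.45% of 8450 genes, and 6 at E19 (these 3, Notch3, Hes1 and Lfng), beside 4.11% of 10009. None was lower at either stage, beside 2.59% and 3.05%, and 6 and 5 of the 10 reached 100 UMIs. In the pup, with 78 and 151 cells, 0 were higher, beside 2.08%, and 0 lower, beside 3.33%, but 1 of the 10 reached 100 UMIs and 4 had no more than 3 on both sides. Heyl then stood at 30.3 CPM (18.2–47.3) in the esophagus and 15.7 CPM (6.30–32.3) in the stomach, a point estimate in the opposite order to E15 and E19 with overlapping intervals. The summed level of the pericyte genes Rgs5, Kcnj8 and Abcc9 was also lowest in the esophagus in these fibroblasts, at E19 with 162 CPM in the esophagus, 348 CPM at the GE-SCJ and 387 CPM in the stomach, and at E15 with 172 CPM, 328 CPM and 556 CPM. Its part in the result was not tested. Cells with at least 2 UMIs over these genes, 1619 of 3442, held Heyl at 39.5 CPM (36.5–42.7) and Notch3 at 77.4 CPM (73.2–81.7), and the others at 8.12 CPM (6.79–9.65) and 34.4 CPM (31.6–37.4), with 341 and 568 cells within 1 UMI of the limit. Cells past the limit are not taken as pericytes. Abcc9 stood at 88.8 CPM under the fibroblast label and 86.1 CPM in smooth muscle, and Kcnj8 at 62.0 CPM and 78.5 CPM.

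The pup's fibroblasts at the GE-SCJ and in the stomach had lower levels of Notch3, Hey1 and Heyl than those of E15. The log2 ratio of Notch3 was -1.43 (-2.45 to -0.57) at the GE-SCJ and -1.44 (-2.41 to -0.62) in the stomach, and -0.37 (-1.16 to 0.34) in the esophagus. Hey1 had 0 UMIs in the pup at the GE-SCJ, at least 2.33-fold lower than its E15 level when the pup is set to 3 UMIs. For Hes1 the log2 ratio was -1.13 (-1.5 to -0.79) in the esophagus, -1.83 (-2.38 to -1.33) at the GE-SCJ and -0.92 (-1.31 to -0.55) in the stomach. Heyl differed in direction between the regions, at 1.53 (0.68 to 2.33) in the esophagus, with 19 UMIs in the pup, -1.73 (-3.20 to -0.58) at the GE-SCJ and -1.06 (-2.30 to -0.05) in the stomach. In the esophagus, GE-SCJ and stomach 2, 1 and 1 of the 10 genes were higher in the pup, beside 8.84%, 7.89% and 6.88% of genes, and 2, 4 and 4 lower, beside 12%, 12.8% and 10.5%. Of the 10, 4, 5 and 5 reached 100 UMIs over both sides. The higher genes were Heyl and Lfng in the esophagus and Notch4 at the GE-SCJ and in the stomach. Notch4 rested on 1 UMI in the pup and 5 at E15 at the GE-SCJ, and on 3 and 7 in the stomach. At the GE-SCJ it passed 2-fold only through the added UMI. The summed pericyte genes stood higher in the pup, at 328 CPM and 612 CPM at E15 and in pups at the GE-SCJ, and at 556 CPM and 620.4 CPM in the stomach.

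Smooth muscle held lower levels of the set than fibroblasts when all regions and stages were summed, with 7 of the 10 genes lower, beside 9.67% of 12407 genes, and 0 higher, beside 5.45%, a median log2 ratio of -1.18 against -0.17 over all genes counted. Of the 10, 9 reached 100 UMIs over both sides, and their median took in Notch4, which did not. The log2 ratio was -2.86 (-3.38 to -2.38) for Heyl, -2.21 (-2.89 to -1.60) for Hey1, -1.51 (-1.77 to -1.26) for Notch1 and -1.02 (-1.20 to -0.84) for Notch3, and Notch2, Notch4 and Nrarp were within 2-fold. Without cells that held 3 or more UMIs over markers of another class the log2 ratio was 0.05 for Notch3 and 0.65 for Hey2, but this removed 3180 of 3442 fibroblasts and 880 of 1027 smooth muscle cells. Inside the 10 samples of 1 region and stage with at least 20 cells of both labels, a comparison added after the levels were seen, Notch1 was lower in 6 and higher in 0, and Notch3 and Heyl were each lower in 6 and higher in 1, the adult esophagus. Hes1 and Hey1 were each lower in 4 and higher in 1, Hey2 lower in 5 and higher in 2, and Lfng lower in 5 and higher in 0. The higher sample of Hey1, the esophagus at E19, held 1 smooth muscle UMI and passed 2-fold only through the added UMI. For Notch1 the lower samples were those of E15 and E19, and the pup and adult samples had log2 ratios from -0.72 to 0.47. Hes1 was likewise lower at E15 and E19 only, with log2 ratios from -0.13 to 1.82 in the pup and adult samples. As a mean over the CPM of single cells 3 genes were lower in place of 7, and 1 was higher. Without adult-tagged cells the ratio of Notch3 was -1.41.

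The adult smooth muscle of the esophagus had the highest Notch3 and Hey2 of the 10 smooth muscle groups of at least 20 cells. Its 30 cells held Notch3 at 368 CPM (282–470.3), where the other 9 groups of at least 20 cells ranged from 0 to 39.4 CPM (24.7–59.7). They held Hey2 at 70.0 CPM (36.2–122), Heyl at 35.0 CPM (12.8–76.2) and Nrarp at 70.0 CPM (36.2–122), and at E15 these 3 targets stood at 7.06 CPM, 8.82 CPM and 7.94 CPM. In a comparison with E15 chosen after these levels were seen, 5 of the 10 genes were higher in the adult (Notch1, Notch3, Hey2, Heyl and Nrarp), beside 9.93% of 1983 genes, and 0 lower, beside 14.7%, with 1 of the 10 at 100 UMIs or more. The log2 ratio was 3.52 (2.91 to 4.14) for Notch3, 3.26 (1.92 to 4.66) for Hey2 and 3.10 (1.80 to 4.45) for Nrarp. The same cells had 3466 CPM of the 3 pericyte genes, against 222 CPM at E15, and the part of this in the result was not tested. The 16 adult smooth muscle cells of the GE-SCJ, under the limit of 20 cells and with 3 of them among mostly prenatal neighbors, had Notch3 at 131 CPM (71.7–219.9).

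In the pup smooth muscle Notch3 differed by region. It was at 0 CPM (0 UMIs, where 3 UMIs would be 5.27 CPM) in the 119 cells of the GE-SCJ, against 28.3 CPM (20.9–37.4) at E15, at least 5.37-fold lower when the pup is set to 3 UMIs. In the 113 cells of the stomach it was at 39.4 CPM (24.7–59.7), against 20.6 CPM (14.2–28.7) at E15. The esophagus had 0 Notch3 UMIs in its 42 cells of E19 and in its 22 cells of the pup, where 3 UMIs would be 6.49 and 26.2 CPM. The summed pericyte genes stood at 985 CPM at the GE-SCJ and 2125 CPM in the stomach of the pup. Their part in the result was not tested. Notch1 was higher in the pup than at E15 at both sites, from 12.1 CPM (7.50–18.5) to 33.4 CPM (20.1–52.1) at the GE-SCJ and from 8.47 CPM (4.63–14.2) to 32.2 CPM (19.1–51.0) in the stomach. Pup over E15, 1, 1 and 5 of the 10 genes were higher in the esophagus, GE-SCJ and stomach, beside 6.84%, 10.7% and 10.2%, and 0, 1 and 0 lower, beside 11.7%, 11.7% and 12.5%. At most 2 of the 10 reached 100 UMIs in any of the 3 regions.

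**Figure D4:**
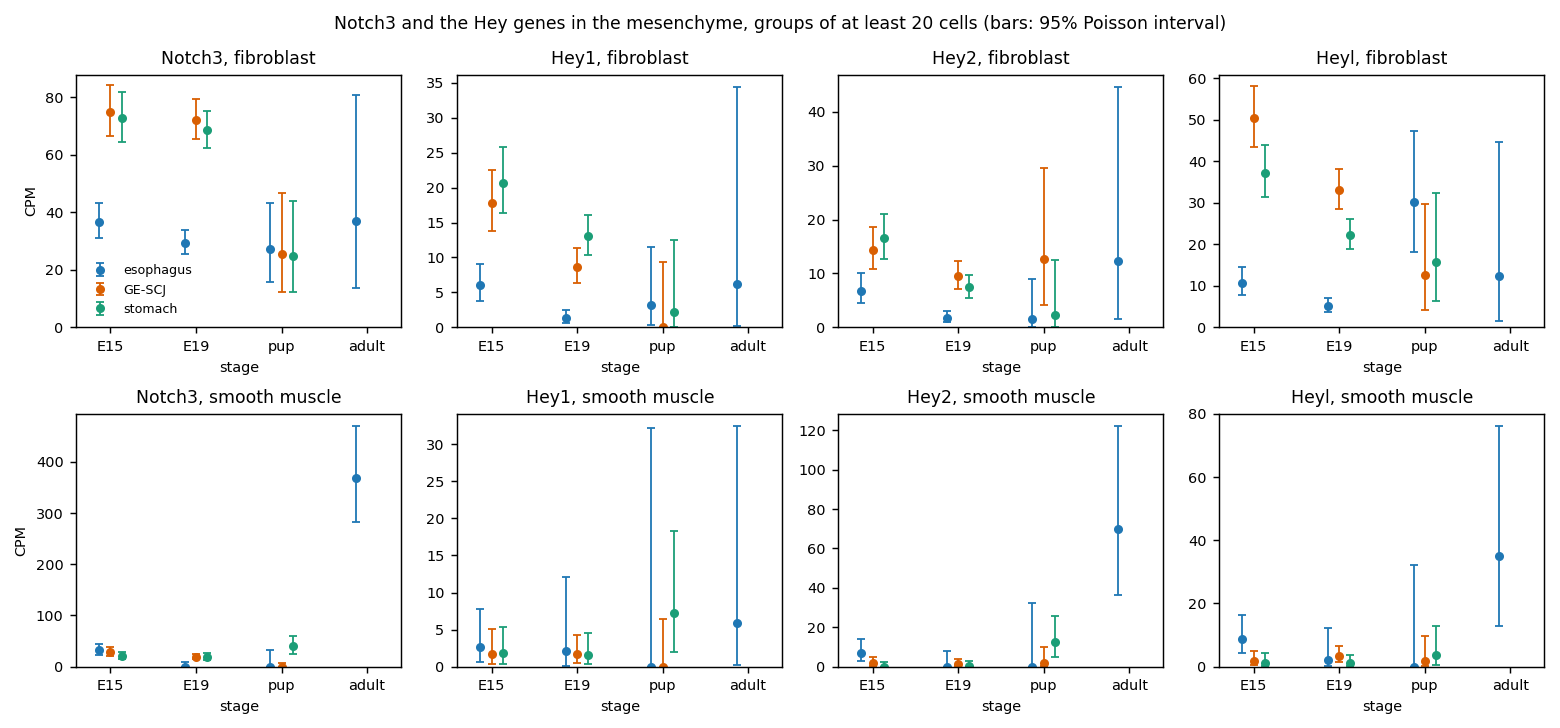
Levels (vertical axis, CPM, from 0, a scale of its own in each panel) of Notch3, Hey1, Hey2 and Heyl by stage (horizontal axis) and region (color) in groups of at least 20 cells, with fibroblasts in the upper and smooth muscle in the lower row; whiskers are 95% Poisson intervals. The esophageal fibroblasts lie below the other regions at E15 and E19, and adult esophageal smooth muscle holds Notch3 at 368 CPM.

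The second stromal label, whose cells carried the mesothelial genes Upk3b, Wt1, Msln and Lrrn4 at a summed 1841 CPM, was set against the fibroblast label after the levels were seen. Of the 10 genes 6 were lower there (Notch1, Notch3, Hes1, Hey1, Hey2 and Heyl), beside 9.99% of 12032 genes, and 1 was higher, Lfng, beside 9.86%, with 8 of the 10 at 100 UMIs or more. The log2 ratio of Lfng was 2.80 (2.36 to 3.22), that of Notch3 -2.92 (-3.98 to -2.03) and that of Notch2, within 2-fold, 0.68 (0.36 to 0.99). Lfng in this label stood at 15.9 CPM (5.17–37.2) at E15, 35.5 (22.5–53.3) at E19 and 82.2 (55.8–117) in pups, and the intervals of E15 and the pup did not overlap. In immune cells Lfng was also highest in the pup, at 54.3 CPM (37.4–76.3) against 19.7 CPM (12–30.4) at E15 and 27.9 (21.2–36.0) at E19.

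Other genes of the pathway came from a list of 32, of which 30 were in the table. Of these 30, 8 were higher in endothelial cells than over the other labels (among them Dll4, Jag1, Jag2 and Mfng), beside 9.97% of all genes counted, and 3 lower, beside 19.2%. In neural cells 6 were higher (among them Dll1, Dll3 and Hes5), beside 13.8%, and 3 lower, beside 19%. In smooth muscle against fibroblasts 0 were higher, beside 5.45%, and 4 lower, beside 9.67%. In squamous against columnar cells of the GE-SCJ the higher ones numbered 5, 6 and 6 at the 3 stages, beside 3.58%, 6.51% and 7.85% of genes, with 6, 3 and 4 of the 30 at no more than 3 UMIs on both sides. Jag1, Jag2, Dlk2 and Maml2 were among the higher ones each time. The ligand genes were spread over the labels. Jag1 stood at 50.4 CPM (46.3–54.8) in smooth muscle, 47.2 CPM (37.6–58.4) in endothelial and 39.7 CPM (35.9–43.8) in squamous cells, and Jag2 at 48.4 CPM (44.2–52.8) in squamous and 46.0 CPM (36.6–57.2) in endothelial cells. Dll1 stood at 23.8 CPM (19.1–29.2) in neural cells and 14.9 CPM (13.6–16.2) in fibroblasts, and Dlk1, a ligand-like gene of fetal mesenchyme, at 1456 CPM (1443–1469) in fibroblasts. Adam10, whose product makes the first cut in a bound receptor, ranged over the labels from 43.2 CPM (27.7–64.3) in the second squamous label to 179.7 CPM (161–200.5) in endothelial cells, and Rbpj from 28.8 CPM (16.5–46.8) to 209.6 CPM (195–225) in immune cells.

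Genes whose levels followed those of each member were ranked by Pearson's r of log2(CPM + 10) across the 55 groups of label, region and stage with at least 20 cells, among 14658 genes with at least 100 UMIs, as a description, since all groups come from 1 run of pooled cells and differ in depth. Hey2 and Notch4 had the highest r on this scale. For Hey2 these were Tbx3, Sox10, Megf10, Tbx3os1 and Cmtm5, at r from 0.92 to 0.94, and for Notch4 Mmrn2, Madcam1, Cldn5, Gimap4 and Aplnr, each at 0.90. The place of Notch4 changed with the setting, its highest r being 0.71 with log2(CPM + 1) and 0.74 with groups of at least 50 cells, the lowest of the 10 genes in both, while that of Hey2 was the highest in both. Only 2 of the 55 groups were endothelial, and the larger of them had 32 cells. The setting of at least 50 cells thus held no endothelial group, and its r for Notch4 does not bear on the endothelial label. For Heyl they were Slitrk5, Rftn2, Serpine2, Slitrk6 and Lsamp, at 0.85 to 0.88. The other 7 genes had lower ones, and of the 50 genes in these lists 29 were kept with log2(CPM + 1) and 5 with groups of at least 50 cells. Notch1 was followed by Chd7, Dusp6, Zbtb18, Fam184b and Map3k1 (0.71 to 0.80), Hey1 by Fam181b, Fscn1, Shf, Ebf3 and Adam12 (0.73 to 0.77) and Lfng by Pitpnc1, Arhgap25, Arl4c, Tmem144 and BC005537 (0.68 to 0.77). Notch3 was followed by 5 genes that included Ndufa4l2, Glce, Rbms2 and Gnl1 (0.64 to 0.75), Hes1 by Prdm16, Map3k4, Arhgef16, Prag1 and Egr2 (0.68 to 0.75), Nrarp by Fzd6, S100a16, 9130017K11Rik, Fam129b and Cyb561 (0.68 to 0.74) and Notch2 by Appl1, Celf2, S1pr2, 4932438A13Rik and Akt2 (0.66 to 0.73). Among the members themselves the highest of the 45 correlations was that of Hey2 with Heyl, 0.87, and the lowest that of Notch2 with Nrarp, -0.41. No receptor reached the r of Hey2 and Heyl with any target, the highest being Notch1 with Hey2 at 0.61.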

How the data were processed

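Single cells of the mouse esophagus, GE-SCJ and stomach were multiplexed by region and stage with lipid-tagged oligos and sequenced in 1 run with 10x Genomics 3′ chemistry. The deposited table holds raw UMI counts per gene and cell, which the authors obtained with Cell Ranger (6.1.1 per the submitters' processing notes) on mm10 and filtered on genes, UMIs and mitochondrial share. The deposited metadata give each cell's total UMI counts, its percent of mitochondrial UMIs (at most 19.7%), its tag and the authors' label. No further cells were removed, and no doublet caller was run. External datasets, Neurog3 and Atoh1 were not analysed here. Some genes of the pathway, marker and likeness lists are not reported here, nor is a split of neural cells that used one of them.

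UMIs were summed over cells of a label, region and stage and divided by the summed UMIs. Python 3.11.15 with pandas 2.3.3, numpy 2.4.6, scikit-learn 1.9.0, matplotlib 3.10.9 and scipy 1.17.1 gave exact 95% Poisson and Clopper-Pearson intervals. It also gave conditional binomial intervals of the sums with 1 UMI added, and the calculation was tested on simulated data. Each group is 1 pooled sample, so no p-value was computed. A ratio needed at least 20 cells a side, a sum of 3 UMIs was the floor, and the background counted every gene with at least 100 UMIs over both sides. Shares were recomputed on cells thinned to 2000 UMIs, with cells of fewer UMIs left out. Nearest neighbors were found among 15 cells in 30 principal components of 2000 variable genes. The 10 genes, the pathway list and the marker lists were named by rule, as were the 5 genes most like each member by Pearson's r. All of these were chosen with earlier results of these data known. Gene positions are those of GRCm38. Alternatives were the mean over the CPM of single cells, stricter cell limits, another library size, and leaving out the top 1% of cells, cells with markers of another class, the second squamous label or adult cells with mostly prenatal neighbors.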

Additional observations from a re-analysis of the deposited data

Results flagged for a closer look

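The same comparison, pup over E15, had opposite directions for 3 of the 10 genes in different cells, counting ratios of at least 2-fold whose intervals left out 0, and in each case the difference was not tested, since every group is 1 pooled sample. For Heyl in fibroblasts the log2 ratio was 1.53 in the esophagus, -1.73 at the GE-SCJ and -1.06 in the stomach, and in stomach columnar cells it was -2.98. For Notch1 it was 1.47 in smooth muscle of the GE-SCJ and 1.91 in smooth muscle of the stomach, against -1.26 in stomach columnar cells, -1.46 in columnar cells of the GE-SCJ and -1.65 in esophageal squamous cells. For Hes1 it was 2.54 in neural cells and 1.52 in stomach smooth muscle, against -1.13 in esophageal fibroblasts, -1.83 in fibroblasts of the GE-SCJ and -1.47 in esophageal squamous cells.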

How the results depend on the processing

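Each group is 1 pooled sample, so that no replicate could be left out. No paired analysis was possible because the labels give no replicate numbers and each region and stage is 1 sample, so labels that share a sample were compared inside it, without a test. Of the log2 ratios of single genes, 154 of 166 kept their sign with the mean over cells, 130 of 135 without the top 1% of cells and 77 of 81 without cells with markers of another class. Among those of at least 2-fold, 3 changed sign. Without cells with markers of another class, Notch3 and Hey2 in smooth muscle over fibroblasts were 0.045 and 0.65 in place of -1.02 and -1.25. This left out 3180 of 3442 fibroblasts and 880 of 1027 smooth muscle cells. The marker lists hold Tff1, found in 94.9% and 94.6% of the cells of these labels, so that the filter does not pick out mixed cells alone. With the mean of the CPM of each cell, Notch4 in esophageal squamous over stomach columnar cells of the pup was -0.11 in place of 1.38.

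Counts of genes past 2-fold moved as follows, and the cause was not tested. In smooth muscle over fibroblasts, the mean over cells gave 1 higher and 3 lower, and leaving out cells with markers of another class 1 higher and 2 lower, in place of 0 and 7. The latter gave 1 lower in endothelial cells (Hes1) in place of 4, which then had no endothelial UMI and could not be called. Genes higher at all stages numbered 2 in place of 1 for GE-SCJ squamous over columnar cells, both with the other library size and without cells with markers of another class, and 2 in place of 4 for esophageal squamous over stomach columnar cells with the mean over cells. In adult over E19 esophageal squamous cells 2 were lower in place of 1 under 5 alternatives (the mean over cells, the other library size, without the top 1% of cells, without cells with markers of another class, the first squamous label alone), and 0 were higher in place of 1 with the other library size and with the first label alone. For pup over E15 in all regions, the lower fibroblast genes were 1 with stricter cell limits and 2 without the top 1% of cells, in place of 0, and the higher smooth muscle genes 0 in place of 1 without the top 1%. The higher genes of the pup's endothelial cells were 2 with the mean over cells and 3 without the top 1%, in place of 5. Of the 50 most alike genes, 29 were shared with log2(CPM + 1) and 5 with groups of at least 50 cells. Thinning to 2000 UMIs moved 79 shares of cells and left 11 within their intervals.

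Leaving out cells with markers of another class was not run for 7 comparisons in which fewer than 20 cells a side were left. The sets without adult-tagged cells and without pup and adult cells were chosen after seeing the data, and changed no count.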
